A study of Mus musculus with 11 samples.

Results

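Notch1, a cell surface receptor, and Hes1, the transcriptional repressor that it switches on, were followed in the ventricles of mice that overexpress angiotensinogen in the heart. Both were found by their platform gene symbol. Each had 1 spot on the array, and they are 2 of 8106 named genes that were tested (12097 features with the unnamed spots). All mice were males of the TG1306/1R line on a C57/BL6 background, about 60 weeks old and without treatment, and RNA came from both ventricles together with the septum. The 4 WT mice were littermates without the transgene, wild-type (-/-). The 4 Hyp mice were heterozygous carriers (+/-) with concentric hypertrophy, and the 4 Dil mice were heterozygous carriers with a dilated heart. The carrier hearts were sorted into these groups by chamber shape, cardiac weight index and hypertrophic marker genes, and the index ran from 4.2 to 4.9 mg/g in WT, 5.3 to 5.8 mg/g in Hyp and 7.8 to 9.2 mg/g in Dil. The arrays of Hyp3 give it different indices, 5.3 and 5.6 mg/g, and it was taken as 1 mouse by its label. Mice with the same number form a set, and each of 11 cDNA arrays with 2 colours compared 2 mice of 1 set. There were 4 arrays of WT and Hyp, 3 of WT and Dil and 4 of Hyp and Dil, and a direct array of WT2 and Dil2 was not analysed here.

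Notch receptors are cut when a Jagged or Delta ligand on a neighbouring cell binds them. The freed intracellular part enters the nucleus, joins the DNA-binding protein Rbpj and its coactivators, and turns on repressors of the Hes and Hey families. In the heart the pathway is known for its part in valves, trabeculae and vessels during development, and it has been studied in the response of the adult heart to load. Hes1 is a basic helix-loop-helix repressor and one of the direct targets of this pathway.

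In the mouse assembly GRCm38.p6, Notch1 is a protein-coding gene on the minus strand at chr2:26457902-26503822, and Hes1 is a protein-coding gene at chr16:30065357-30067796. The 250 bases before the start of Notch1 are shown because they are the control region next to the gene that was measured. They run over chr2:26503823-26504072 on the minus strand and are written 5′ to 3′ as given by RefSeq, with GC boxes (GGGCGG, either strand) in capitals.
Notch1: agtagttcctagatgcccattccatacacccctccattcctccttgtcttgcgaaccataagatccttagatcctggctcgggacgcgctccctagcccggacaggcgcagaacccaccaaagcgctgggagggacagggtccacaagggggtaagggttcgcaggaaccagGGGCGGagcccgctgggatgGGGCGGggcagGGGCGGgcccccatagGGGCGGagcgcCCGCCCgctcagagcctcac
This window holds 5 GC boxes, and 32.7% of the 32851 RefSeq promoter windows of the same length hold at least 1. The letters GTGGGAA, a binding motif of Rbpj, were not in this window on either strand, and they were in 5.42% of all windows.

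The measured quantity was the deposited log ratio of the 2 dyes, taken as log2 of Cy5 over Cy3. A ratio holds no level, so neither the abundance of Notch1 and Hes1 nor the identity of the tissue could be read from single channels. In whole ventricles, fewer cells of a type and less RNA per cell cannot be told apart. The direction is likely, not stated: with it, Agt was at 2.09 ± 0.40 in Hyp minus WT and 2.15 ± 0.40 in Dil minus WT, and Nppb, a natriuretic peptide gene, at 1.02 ± 0.30 and 2.53 ± 0.32 (log2 difference ± SE, 4 mice per group). With the opposite direction every sign given here would turn.

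Hes1 had a ratio above 0 on 11 of 11 arrays, whichever group was in Cy5. On the arrays of WT and Hyp its log2 ratio of Cy5 over Cy3 was 1.99 and 1.93 where Hyp was in Cy5 (sets 1 and 4), and 0.58 and 0.66 where WT was in Cy5 (sets 2 and 3). On the arrays of WT and Dil it was 1.54 and 1.02 with Dil in Cy5 (sets 1 and 3) and 0.78 with WT in Cy5 (set 4). On the arrays of Hyp and Dil it was 1.05 and 0.42 with Dil in Cy5 (sets 2 and 4) and 1.29 and 0.67 with Hyp in Cy5 (sets 1 and 3). All 4 values of WT and Hyp lay on the side of the Cy5 sample. The 2 dye orientations hold different mice, so orientation and mice cannot be told apart in them.

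Notch1 followed the same course, with a lower ratio than Hes1 on 9 of 11 arrays, and was above 0 on 10 of 11 arrays. With Hyp over WT its log2 ratio was 1.58 and 1.52 (sets 1 and 4), and with WT over Hyp it was 0.49 and 0.47 (sets 2 and 3). With Dil over WT it was 1.07 and 0.45 (sets 1 and 3), and with WT over Dil 0.51 (set 4). With Dil over Hyp it was 1.22 and -0.02 (sets 2 and 4), and with Hyp over Dil 1.42 and 0.28 (sets 1 and 3). Of the 12704 spots with a value on all arrays, 1.42% were above 0 on all 11, and Hes1 was among them while Notch1 was at -0.02 on the array of Dil4 and Hyp4.

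**Figure D1:**
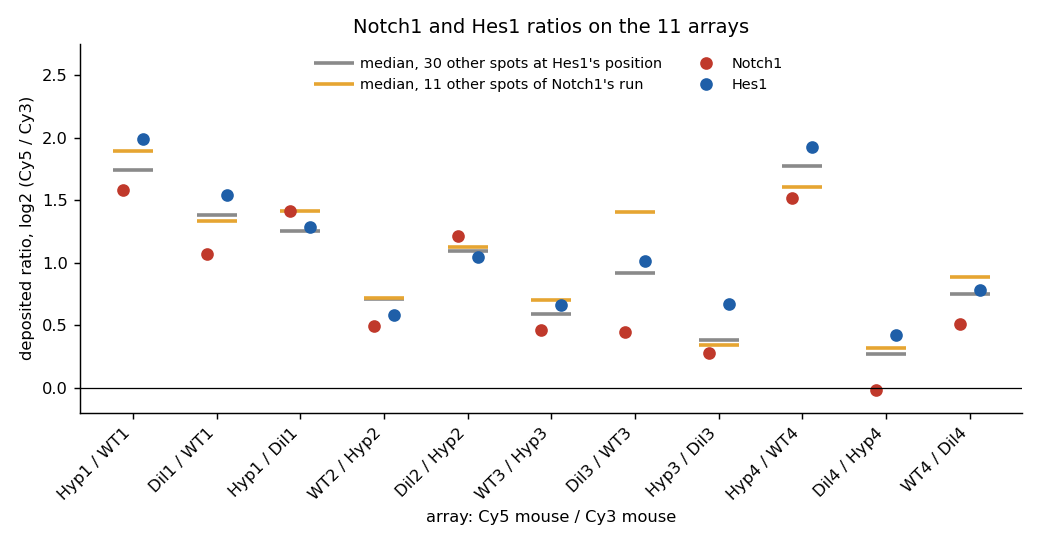
Deposited log2 ratio (vertical axis) of Notch1 (red) and Hes1 (blue) on each array (horizontal axis, mouse in Cy5 over mouse in Cy3), with the medians of the other spots at the print position of Hes1 (grey bars) and of the other spots in the run of 12 that holds Notch1 (yellow bars). Both genes lie above 0 on all arrays but Dil4 over Hyp4, where Notch1 is at -0.02, and they follow the bars from array to array.

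The part of a ratio that stays with the dye was estimated in the fit beside the group differences. It was 1.00 ± 0.08 for Hes1 (limma adjusted p = 0.000143) and 0.71 ± 0.12 for Notch1 (adjusted p = 0.00647), higher in Cy5. Among 12097 features they ranked 28 and 53 by the size of this offset, and 3.12% of the features passed with a higher value in Cy5. In sets 1, 3 and 4, whose 3 arrays close a triangle, the offset can be had within the set (in set 3 if Hyp3 is 1 mouse). It was 0.84, 0.78 and 1.04 for Hes1 and 0.90, 0.40 and 0.67 for Notch1, against a median size of 0.14, 0.11 and 0.11 over all spots. Each of these values rests on 3 single arrays and has no error, so how much the offset varies between sets was not compared between the genes.

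In Hyp minus WT, Hes1 was at 0.59 ± 0.14 (1.50-fold, SE, 4 mice per group, 95% interval 0.27 to 0.90) and did not pass over all features (limma adjusted p = 0.871, unadjusted p = 0.00159, rank 17 of 12097). Notch1 was at 0.45 ± 0.20 (1.37-fold, 95% interval 0.02 to 0.89) and did not pass (limma adjusted p = 0.999, unadjusted p = 0.0425). No feature passed in this comparison (0 of 12097, 0.0%), and 4.41% had an unadjusted p under 0.05. By set, with the shared dye offset removed, Hes1 was at 0.94, 0.42, 0.12 and 0.88 in sets 1 to 4 (two-sided exact sign-flip p = 0.125, the smallest that 4 sets allow). It was above 0 in all 4, as were 6.05% of all features. Notch1 was at 0.93, 0.22, -0.07 and 0.85 (exact p = 0.25). In set 2 the only array of WT and Hyp had WT2 in Cy5, and the set does not give its own offset. Before the shared offset was removed, its Hyp minus WT values were -0.58 for Hes1 and -0.49 for Notch1. The sign of the set 2 values therefore depends on an offset estimated over all sets.

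The high values of both genes came from sets 1 and 4, the sets with Hyp in Cy5 on the direct array. With each set's own offset in place of the shared one, Hes1 was at 1.16, 0.12 and 0.88 and Notch1 at 0.68, -0.07 and 0.85 in sets 1, 3 and 4. Only the set 1 values could move, since in sets 3 and 4 each mouse was once in Cy5 and once in Cy3 and the offset cancels. Orientation and mice are confounded here, since each set has 1 direct array.

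In Dil minus WT, Hes1 was at 0.38 ± 0.15 (1.30-fold, limma adjusted p = 0.235) and Notch1 at 0.25 ± 0.21 (1.19-fold, limma adjusted p = 0.628). Neither passed, and 2.15% of all features did. Hes1 was at 0.60, 0.47, 0.23 and 0.26 in sets 1 to 4, and Notch1 at 0.29, 0.73, 0.05 and 0.16. Both were above 0 in all 4 sets (exact sign-flip p = 0.125 each), as were 11.1% of all features. The set 2 values of both genes rest on arrays that share Hyp2, since no direct array of WT2 and Dil2 was used.

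The carrier groups differed from each other by -0.21 ± 0.14 in Hes1 and -0.21 ± 0.20 in Notch1 (Dil minus Hyp, limma adjusted p = 0.760 and 0.872), where 0.165% of all features passed. The 95% intervals of this difference ran from -0.52 to 0.10 for Hes1 and from -0.64 to 0.23 for Notch1. Hes1 was at -0.34, 0.05, 0.11 and -0.62 in sets 1 to 4 and Notch1 at -0.64, 0.51, 0.12 and -0.69, so 2 sets lay on each side of 0 for both genes (exact sign-flip p = 0.5 each). The set 2 values again depend on the shared offset.

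**Figure D2:**
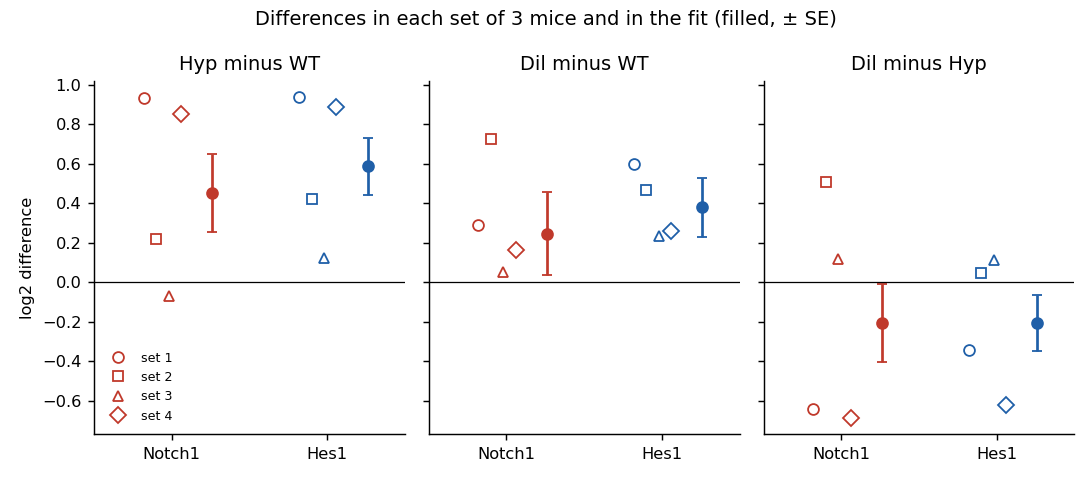
Log2 differences (vertical axis) of Notch1 (red) and Hes1 (blue) in the 3 comparisons, with the shared dye offset removed. Open symbols are sets 1 to 4, and filled points are the fit with its standard error. In Hyp minus WT sets 1 and 4 lie between 0.85 and 0.94 for both genes and sets 2 and 3 between -0.07 and 0.42.

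The ratios of Notch1 and Hes1 were close to proportional over the arrays. Their uncentred correlation, which is 1 for proportional ratios, was 0.968 over 11 arrays (0.903 with each gene's dye offset removed). The arrays share mice and dyes, so these points are not independent. The same course was found in other spots: 85 spots were closer to Hes1 than the Notch1 spot was, and 37 were closer to Notch1 than the Hes1 spot was.

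These spots were gathered at particular places of the print. In the spot order of the deposited table, 32 blocks of equal length follow each other. Hes1 is at position 373 of block 31 and Notch1 at position 549 of block 26, in the last 12 positions of its block. Of 16472 spots with values, 95 had an uncentred correlation of at least 0.95 with Hes1, both members included. At position 373, 25 of the 31 measured spots of the 32 blocks were among them. A further 68 lay in the last 12 positions of 7 blocks, where they were 73.1% of the 93 measured spots of 8 such runs of 12, one of which held none. The remaining 2 were among 16348 spots elsewhere. The 8 runs were in blocks 2, 4, 10, 12, 18, 20, 26 and 28, and their median correlation with Hes1 was at least 0.92, against at most 0.47 in the same positions of the other 24 blocks. Runs were taken whole where their median correlation with Hes1 was above 0.9, and both thresholds were set after the values were seen.

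These places held 108 of the 8106 measured genes, and many of these act in developmental signalling. By the start of the symbol, 13 of the 16 measured Wnt ligand genes lay there, 9 of 24 Fgf and Fgfr genes, 5 of 6 Smad genes, 5 of 5 Pcsk genes and 3 of 3 Dvl genes. Of the other families counted, 2 of 11 Bmp and Bmpr genes, 3 of 8 Hdac genes and 1 of 6 Fzd genes lay there. Besides Hes1, position 373 held the protein convertase genes Pcsk1, Pcsk4, Pcsk5 and Pcsk6, the Wnt pathway genes Apc, Axin1, Dvl1, Dvl2, Dvl3 and Fzd1, the deacetylase genes Hdac3 and Hdac6 and the homeobox gene Isl1 (correlation with Hes1 of 0.969 or more for each). Named spots with lower values there included Hdac5 (0.933), Tle5 (0.758) and a spot of Pcsk7 (0.843, with 0.979 for another). In the run of Notch1, 11 of 12 spots reached 0.95, among them Cck, a gut hormone gene, Mmp7, a matrix metalloproteinase gene, the carbonic anhydrase gene Car2, and Smad2 and Smad6 of transforming growth factor signalling. The ligand gene Jag2 was the exception at 0.41. Other runs held genes known from gut and pancreas, such as Glp1r, a receptor of a gut hormone (0.972), G6pc2, a glucose-6-phosphatase gene of pancreatic islets (0.991), and the glucose transporter gene Slc2a2 (0.976). The families and genes in these sentences were chosen after their values were seen.

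The group differences of these spots, each fitted on its own, lay around those of Notch1 and Hes1. For the 8 runs this follows in part from their choice by correlation with Hes1, since the same ratios hold these differences. In Hyp minus WT the median was 0.49 in the other 30 spots at position 373 and 0.43 in the other 92 spots of the 8 runs, with 30 of 30 and 91 of 92 above 0. The quartiles over all 16347 spots elsewhere were -0.06 and 0.06. Notch1, at 0.45, was matched or exceeded by 39 of the 92 spots and by 7 of the 11 others in its own run. Hes1, at 0.59, was matched or exceeded by 3 of the 30 spots at its position.

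Between Dil and WT the medians were 0.33 and 0.31, and 9 of the 30 spots reached the value of Hes1 and 67 of the 92 that of Notch1. In Dil minus Hyp the medians were -0.15 and -0.12. The dye offset had medians of 0.89 and 0.96. It passed the adjusted test with a higher value in Cy5 in 27 of the 30 and 85 of the 92 spots, and in 432 of 16347 spots elsewhere. Spots at these places had dye offsets and group differences like those of Notch1 and Hes1, a likeness that the choice of the runs favours. What the place on the print contributes to these offsets and differences was not tested. It cannot be told apart here from which clones were printed at these places.

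**Figure D3:**
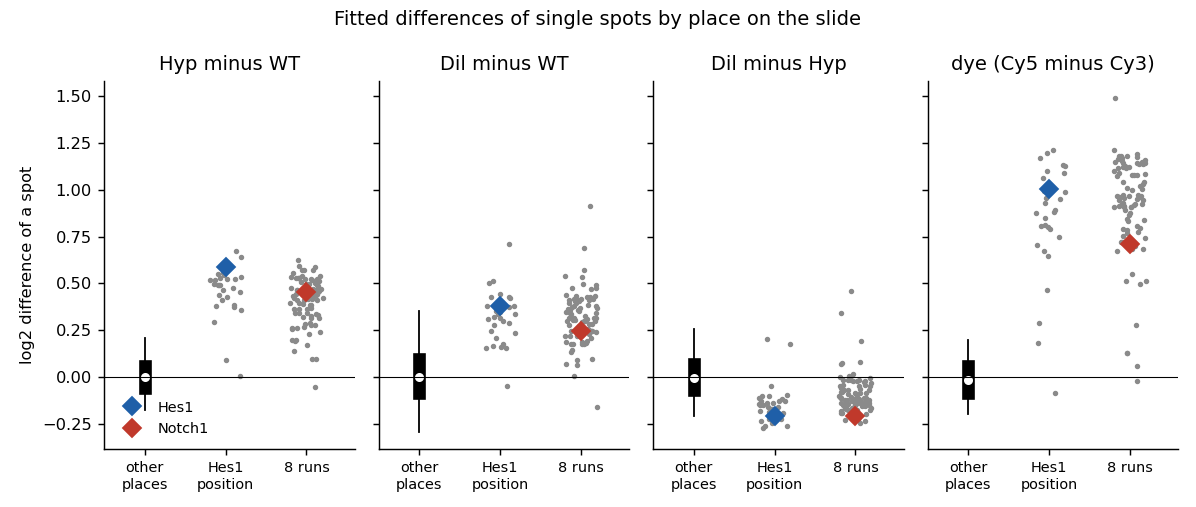
Log2 difference of single spots (vertical axis) in the 3 comparisons and the dye offset. Grey points are the other spots at the position of Hes1 and in the 8 runs of 12, diamonds are Hes1 (blue) and Notch1 (red), and at other places the thin line spans the 5th to 95th percentile, the bar the quartiles and the white dot the median. Both genes lie inside the grey points in all panels. The 8 runs were chosen by their correlation with Hes1, which favours this.

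For 64 genes, spots were present both at these places and elsewhere. In Hyp minus WT their spots at these places had a median of 0.44, and their spots elsewhere a median of 0.01, with a higher value inside for 64 of 64. In Dil minus WT the medians were 0.30 and 0.04 (higher inside for 56 of 64), and the dye offset was 0.91 against 0.01. Over the 112 outside spots the correlation with the Hes1 spot reached at most 0.66. Since the runs among these places were chosen by correlation with Hes1 on the same arrays, the choice favours higher values inside. The counts and medians of these genes are therefore not independent of how the places were found. Notch1 and Hes1 have no spot elsewhere, so this comparison could not be made for them.

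It could be made for 6 genes of the Notch lists, and all are named here. Rbpj, the DNA-binding partner of the cleaved receptor, was at 0.45 ± 0.13 in Hyp minus WT in the run of Notch1 and at 0.08 ± 0.06 and -0.02 ± 0.06 in its 2 other spots. Hes5, another repressor of the Hes family, was at 0.47 ± 0.20 at position 373 and 0.01 ± 0.05 elsewhere. For the ligand gene Dll1 the values were 0.51 ± 0.19 and -0.08 ± 0.07, and for Furin, which processes the receptor before it reaches the surface, 0.52 ± 0.20 and -0.11 ± 0.10.

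Ccnd1, a cyclin gene among the targets, was at 0.50 ± 0.21 and 0.17 ± 0.09 in Hyp minus WT. Its spots were closer in Dil minus WT, at 0.37 ± 0.22 and 0.47 ± 0.09. Tle5, a corepressor gene, was at 0.09 ± 0.11 in Hyp minus WT in the spot at position 373, below the median of 0.49 there, and at -0.08 ± 0.12 and -0.04 ± 0.07 in its 2 other spots. Whether inside and outside spots of a gene hold clones of the same transcript part was not checked here.

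**Figure D4:**
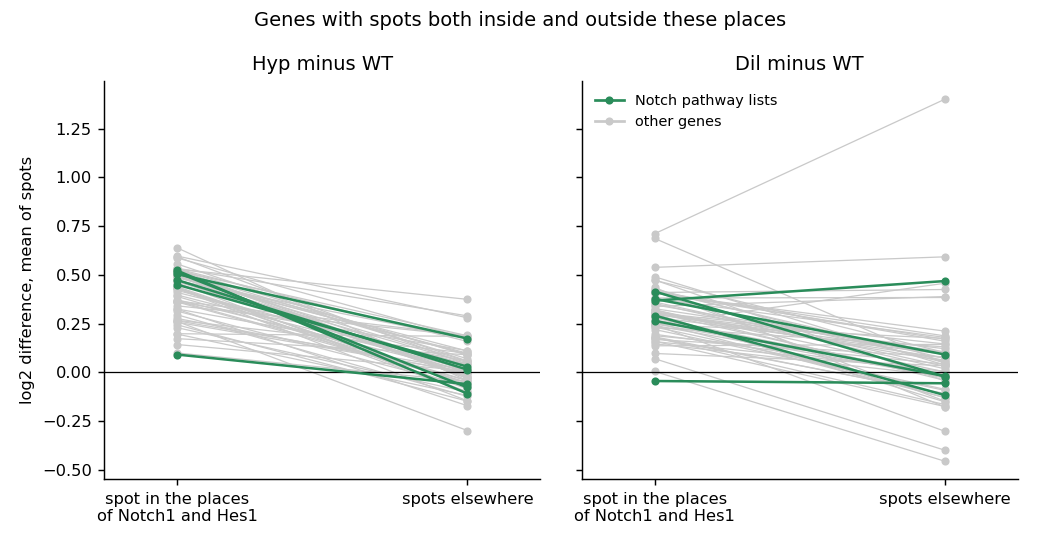
Log2 differences (vertical axis) of the 64 genes with spots at the places of Notch1 and Hes1 (left) and elsewhere (right), each point the mean of a gene's spots there. Green lines are the 6 genes of the Notch lists. In Hyp minus WT the median falls from 0.44 inside to 0.01 outside. The runs among these places were chosen by their correlation with Hes1, which favours this difference.

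Relative to the array median of spots at these places, the group differences of Notch1 and Hes1 lay nearer to 0. The first reference was 26 other spots at position 373, 1 in each of as many blocks, with genes of the Notch lists left out. Against them, Hes1 was at 0.11 ± 0.06 in Hyp minus WT and 0.04 ± 0.06 in Dil minus WT, and Notch1 at -0.02 ± 0.09 and -0.09 ± 0.09. Against 8 other spots of the run of Notch1, Hes1 was at 0.11 ± 0.10 and 0.00 ± 0.10, and Notch1 at -0.02 ± 0.13 and -0.13 ± 0.13. None passed the limma test (adjusted p from 0.692 upward). These 2 references were added after the data were seen. They remove any group difference that the reference genes share, whatever its source.

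**Figure D5:**
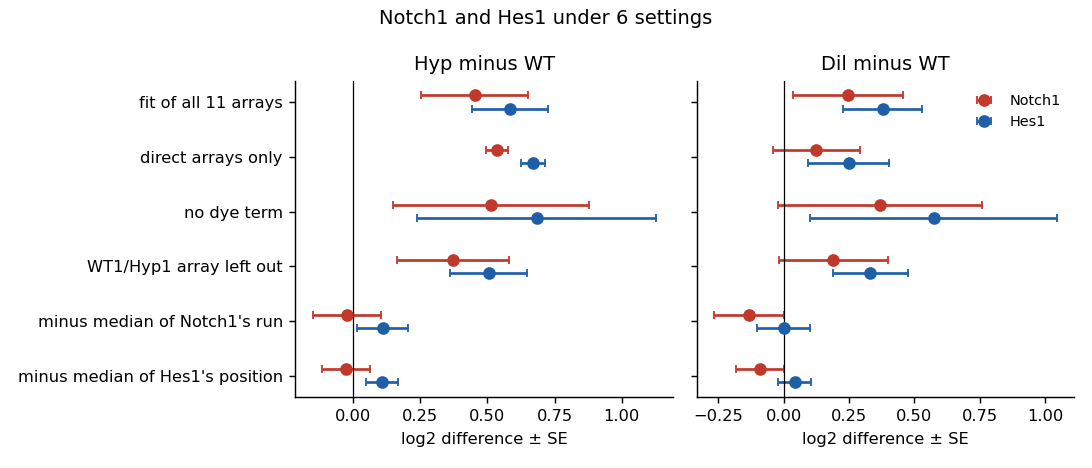
Log2 difference with its standard error (horizontal axis) of Notch1 (red) and Hes1 (blue) under 6 settings (rows) in Hyp minus WT and Dil minus WT. In the 2 lowest rows the median of the other spots of Notch1's run or at position 373 was subtracted on each array, and the values of Hes1 are 0.11 in Hyp minus WT there, against 0.59 in the fit of all arrays.

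The genes whose dye-corrected ratios were most like those of Notch1, among 8105 with at least 10 arrays, were Tle3, a corepressor gene (0.960), Dvl3 (0.955), the receptor genes Notch2 (0.931) and Notch3 (0.928) and the ligand gene Shh (0.926). Hes1 came at rank 18 (0.903). Those most like Hes1 were Wnt11 (0.955), the growth factor receptor gene Fgfr3 (0.954), Tle3 (0.953), G6pc2 and the secretin receptor gene Sctr (0.95 each), and Notch1 came at rank 28. All of these genes have a spot at the places described above, and for all but Dvl3 it is their only spot. This follows in part from how the places were found, by correlation with Hes1 on the same arrays.

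The rest of the pathway was described by list, without the members. Of 89 genes in 7 lists, 64 were tested and 0 passed in any of the 3 comparisons, in which 0.0%, 2.15% and 0.165% of all features passed, so a count of 0 does not set the lists apart. Their median was 0.00 in Hyp minus WT and 0.01 in Dil minus WT, against 0.00 and 0.00 over all 12097 features. The 13 of them with a spot at the places of Notch1 and Hes1 had a median of 0.28 in Hyp minus WT with 12 above 0, and the 51 without had a median of -0.02 with 20 above 0. These medians were 0.26 and -0.03 in Dil minus WT. The choice of the runs by correlation with Hes1 favours this split.

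Among the receptors, Notch2 (0.47 ± 0.21 in Hyp minus WT) and Notch3 (0.54 ± 0.33) have their only spots at these places. Notch4, a receptor of endothelium with its spot elsewhere, was at 0.04 ± 0.10 in Hyp minus WT and 0.23 ± 0.10 in Dil minus WT (limma adjusted p = 0.305). Of 8 ligand genes 5 were measured, with a median of 0.22 in Hyp minus WT. Jag1 (0.28 ± 0.22), Jag2 (0.28 ± 0.20) and Dll1 had spots at these places, and the other 2, Dll4 and Dlk1, lay at -0.14 ± 0.13 and -0.06 ± 0.12.

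Among 13 measured genes of processing, glycosylation and endocytosis, Numbl, an inhibitor of the pathway whose spot shares the run of Notch1, had the smallest p in Hyp minus WT (0.46 ± 0.14, limma adjusted p = 0.8997). All 6 measured genes of receptor cleavage have their spots elsewhere, and their median was -0.03. The 3 with the smallest p were Adam10, the protease of the first cut (-0.09 ± 0.06), and the presenilin complex genes Psen2 (-0.10 ± 0.10) and Aph1a (0.26 ± 0.30). In the list of 21 nuclear complex and corepressor genes the median was -0.01, and Rbpj (0.17 ± 0.06 as the mean of 3 spots), Rbpjl (0.54 ± 0.18) and Tle3 (0.52 ± 0.20) had the smallest p. Each of these 3 has a spot at the places of Notch1 and Hes1.

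Downstream, 10 target genes other than Hes1 had a median of -0.03 in Hyp minus WT and 0.02 in Dil minus WT. Ccnd1 (0.46 ± 0.16 as the mean of 2 spots), Hes5 (0.24 ± 0.11) and Efnb2, an ephrin gene of arteries (-0.20 ± 0.10), had the smallest p in Hyp minus WT. The 8 targets without a spot at these places had a median of -0.06, with 1 above 0. Of 6 measured genes that Hes1 is known to repress, the cell cycle inhibitor gene Cdkn1a was at 0.97 ± 0.26 in Hyp minus WT and 1.09 ± 0.27 in Dil minus WT (limma adjusted p = 0.8997 and 0.0699). Cdkn1c was at -0.21 ± 0.08 in Dil minus WT (limma adjusted p = 0.198), and the list had medians of 0.01 and 0.00.

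Markers of heart cell types were measured in the same samples, none of them at the places of Notch1 and Hes1. In Hyp minus WT the median was 0.02 for 8 endothelial, -0.01 for 10 fibroblast, 0.00 for 5 cardiomyocyte and -0.03 for 4 smooth muscle markers. In Dil minus WT these medians were 0.03, 0.21, -0.22 and -0.23. None of these markers passed, macrophage (2 measured) and erythrocyte (1 measured) markers included, and the atrial list had 0 measured genes. Of all features 0.0%, 2.15% and 0.165% passed in the 3 comparisons, so a count of 0 does not set the markers apart. In Dil minus WT, 4 of 5 cardiomyocyte, 3 of 10 fibroblast and 2 of 4 smooth muscle markers had an unadjusted limma p under 0.05. So did 1 of 1 erythrocyte, 0 of 8 endothelial and 0 of 2 macrophage markers, against 1965 of 12097 features. Their part in the values of Notch1 and Hes1 was not tested.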

How the data were processed

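The authors deposited 1 log ratio per spot and array, taken here as log2 of Cy5 over Cy3. For the log base, scanner, background correction and normalization the sources used here give nothing, and natural logarithms would make every fold too small. Column medians lay between -0.0114 and 0.0068. Spot brightness was not used, so depth is unknown and the number of arrays limits precision. Per the labels, slides were printed with 32 pins and each array took labelled cDNA of 2 mice.

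The WT1 and Hyp1 column is displaced against the others. In 40 of 46 groups of 12 positions its values were moved back by 8 blocks. At the positions of Notch1 and Hes1 the column matched the summed ratios of both other set 1 arrays in its own place (correlation 0.961 and 0.907 over blocks) better than at the shift (0.825 and 0.249), so both kept their deposited values.

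Spots of a gene were averaged, control spots were left out, and a feature needed values on 9 arrays. A generalised least-squares fit of each feature had the 2 carrier groups against WT and the dye as terms and mice as random effects with a shared variance ratio (0.303). limma's eBayes (3.58.1, R 4.3.3) moderated the fit, with Benjamini-Hochberg adjustment over 12097 features and a threshold of 0.05. Errors are its standard errors, whose degrees of freedom count arrays, not mice. Differences by set are least-squares values after the gene's dye offset was removed, tested by exact sign flips over 4 sets. The fit was also run on simulated data, with mouse effects and noise drawn independently for each feature. That run does not bear on a profile shared by many spots. Named genes are the members, Agt and Nppb, and the 5 most like each member. Up to 3 per Notch list and comparison were named by smallest p. Beyond this rule, Dll4 and Dlk1 complete the measured ligands in Hyp minus WT. All genes of the Notch lists with spots both at the places of Notch1 and Hes1 and elsewhere were also named. Any others are said to be chosen later. The members and lists were chosen with earlier results of these data known.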

Additional observations from a re-analysis of the deposited data

How the results depend on the processing

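Notch1 and Hes1 did not pass the limma test in any of the 3 comparisons under any of the 108 alternatives that had a test (lowest adjusted p 0.124). Of 114 alternative values, 19 for each gene and comparison, 110 kept the sign of the fit. Among the 110 is Hes1 in Dil minus WT against the run of Notch1, which at 0.00 ± 0.10 has no usable sign. The 4 that changed sign are those of Notch1 against the spots at these places: -0.0239 in Hyp minus WT and -0.0904 in Dil minus WT against position 373, and -0.0216 and -0.132 against its own run. Leaving out each set in turn, Hyp minus WT ran from 0.44 to 0.73 for Hes1 and 0.26 to 0.62 for Notch1, with the lowest values without set 1. Dil minus WT ran from 0.29 to 0.43 and 0.19 to 0.30, and Dil minus Hyp from -0.32 to -0.06 and -0.42 to -0.03. On direct arrays alone Hyp minus WT was 0.67 ± 0.04 for Hes1 and 0.54 ± 0.04 for Notch1 (limma adjusted p = 0.239 each), while Dil minus WT was 0.25 ± 0.16 and 0.12 ± 0.17. The errors of 0.04 rest on 4 arrays and mainly reflect how close the arrays within each dye orientation were. They do not measure the spread between sets, whose Hyp minus WT values ran from 0.12 to 0.94 for Hes1 and from -0.07 to 0.93 for Notch1. With the WT1 and Hyp1 array left out Hyp minus WT was 0.51 ± 0.14 and 0.37 ± 0.21.

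Mice of the same number share arrays. With the replicate number as a block, Hyp minus WT was 0.59 ± 0.15 for Hes1 and 0.48 ± 0.18 for Notch1 (limma adjusted p = 0.975 each), and 0, 6 and 0 features passed in the 3 comparisons.

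The number of passing features in Hyp minus WT was 0 under every setting. In Dil minus WT it moved from 260 to 159 with the WT1 and Hyp1 array left out, 99 with arrays scaled to the same spread, 7 on direct arrays and 0 (without set 3) to 121 (without set 1) when a set was left out. In Dil minus Hyp it moved from 20 to 7 with that array left out, 41 with it as deposited, 43 without a dye term, 52 without a mouse effect, 0 on direct arrays and 0 to 15 when a set was left out. The cause of these moves was not tested.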
